A study of Mus musculus with 4 samples.

Results

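The genes described here are C-type lectin receptors of myeloid cells, most of them neighbours on mouse chromosome 6 in the cluster named for dectin-2 and the dendritic cell immunoreceptor (DCIR). They were chosen by name, as a list of 10 genes: Clec4a1, Clec4a2, Clec4a3, Clec4a4, Clec4b1, Clec4d, Clec4e, Clec4n, Clec7a and Clec9a. Of these, 9 were measured among the 27998 genes of the count table, and Clec7a was not analysed here. Each gene was described by the cell type of the cells, by library, and by cluster and CD115hi subset of the monocyte, macrophage and DC cells, one gene at a time and not as a combined score.

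The data came from CITE-seq, which counts RNA molecules by unique molecular identifier (UMI) and DNA-tagged antibodies in the same droplets. FACS-sorted CD11b+ splenocytes of C57BL/6 mice aged 8 to 12 weeks were profiled in the steady state (1 library of 4827 cells and 22358903 UMIs) and in the GM-conditioned state (1 library of 6804 cells and 35007567 UMIs). The GM-conditioned mice had received 10 µg of the cytokine GM-CSF subcutaneously once daily for 3 days, with spleens taken 24 hours after the last injection. Each condition is 1 library, and the number of mice behind each is not given in the sources used here, so no test between conditions was possible. All intervals below are 95% intervals that cover counting error alone. They say nothing of how animals vary. Levels are UMIs per 1000000 UMIs of a group of cells (CPM), and a ratio between groups has 0.5 counts added to each sum.

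Myeloid C-type lectins are membrane receptors that bind sugars and glycolipids on microbes and damaged cells. Clec4n (dectin-2), Clec4d (MCL), Clec4e (Mincle) and Clec4b1 (DCAR) are activating receptors that signal through the Fc receptor gamma chain, Syk and Card9. Clec4a2 (DCIR1) and Clec4a4 (DCIR2, the antigen of the 33D1 antibody and a surface marker of splenic cDC2s) carry inhibitory motifs and recruit phosphatases, whereas Clec4a1 and Clec4a3 are their close relatives in the DCIR family. Clec9a (DNGR-1) recognises dead cells and is best known on cDC1s, which carry little CD11b.

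On GRCm38 (mm10, GENCODE gene models), 8 of the 9 measured genes lay within 368 kb of chromosome 6, from position 122921848 to 123289870. The order along the chromosome was Clec4a1 (122921848 to 122934619), Clec4a3 (122952515 to 122969875), Clec4a4 (122990367 to 123024105), Clec4b1 (123049962 to 123071555), Clec4a2 (123106428 to 123143999), Clec4n (123229843 to 123247021), Clec4d (123262111 to 123275265) and Clec4e (123281789 to 123289870). Clec4e was the only one of these 8 on the minus strand. Clec9a (129408862 to 129424763) lay 6.12 Mb beyond this span on the same chromosome.

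The start sites of 4 genes are shown, 2 that were higher and 2 that were lower after GM-conditioning in the cells described below, because these neighbours share one stretch of chromosome. Each window runs from 250 bases before to 50 after the RefSeq gene start on GRCm38.p6, read 5′ to 3′ on the strand of the gene. The windows are chr6:123049712-123050011 (plus strand) for Clec4b1, chr6:123122440-123122739 (plus) for Clec4a2, chr6:123261857-123262156 (plus) for Clec4d and chr6:123289822-123290121 (minus) for Clec4e. The RefSeq start used for Clec4a2 lies inside the GENCODE span given above and not at its first base. Capitals mark a match to one of the motifs that were searched.
Clec4b1: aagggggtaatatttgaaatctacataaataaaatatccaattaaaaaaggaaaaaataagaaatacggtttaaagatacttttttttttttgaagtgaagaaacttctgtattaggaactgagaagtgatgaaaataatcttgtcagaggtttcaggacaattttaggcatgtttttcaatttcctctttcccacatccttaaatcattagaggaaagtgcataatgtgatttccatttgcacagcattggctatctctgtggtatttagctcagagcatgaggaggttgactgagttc
Clec4a2: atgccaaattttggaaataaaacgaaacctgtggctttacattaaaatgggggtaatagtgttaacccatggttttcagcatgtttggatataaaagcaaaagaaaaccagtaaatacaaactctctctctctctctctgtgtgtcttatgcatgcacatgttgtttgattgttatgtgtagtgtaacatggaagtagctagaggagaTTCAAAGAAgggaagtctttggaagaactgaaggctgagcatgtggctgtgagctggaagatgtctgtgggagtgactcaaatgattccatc
Clec4d: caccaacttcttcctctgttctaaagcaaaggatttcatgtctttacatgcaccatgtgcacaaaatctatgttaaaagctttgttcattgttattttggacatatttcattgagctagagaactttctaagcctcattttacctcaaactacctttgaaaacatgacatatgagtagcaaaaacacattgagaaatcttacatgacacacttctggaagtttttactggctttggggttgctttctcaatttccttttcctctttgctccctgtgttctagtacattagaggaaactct
Clec4e: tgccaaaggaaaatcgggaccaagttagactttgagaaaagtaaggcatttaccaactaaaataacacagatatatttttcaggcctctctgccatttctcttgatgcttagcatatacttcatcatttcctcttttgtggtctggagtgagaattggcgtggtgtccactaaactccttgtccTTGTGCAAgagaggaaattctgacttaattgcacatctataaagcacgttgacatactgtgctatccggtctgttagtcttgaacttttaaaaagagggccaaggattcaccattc

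The motifs searched, on both strands, were TTCNNNGAA (STAT type), GAGGAAGT (PU.1 type) and TTGCNNAA (C/EBP type). RefSeq windows matched 7 of the 9 measured genes (8 windows), and Clec4a4 and Clec4n had none in the table used. Clec4a2 held the letters TTCAAAGAA from 42 bases before its RefSeq start, a motif found in 8.30% of 32851 windows over all genes. Clec4e held TTGTGCAA from 66 bases before its start, and the C/EBP type motif was found in 10.8% of all windows. No window of these genes held the PU.1 type motif, which 3.20% of all windows held. These are matches of letters and were not tested as binding sites.

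Some labels and groups stood apart and touch the values below. The cells deposited as cDC2-A carried the NK cell list (6 genes, among them Ncr1 and Gzma) at 19168 CPM in steady state and 19911 CPM in the GM-conditioned library, against 22 and 48 CPM for the cDC2 list, and so did not match their name. Of the 43 steady-state cells of MoMacDC_c4, 30 had a UMI of the NK cell list (11946 CPM), which stood at 1.57 CPM in the GM-conditioned cells of that cluster. The MoMacDC clusters are the monocyte, macrophage and DC clusters of the deposited table. Classical monocyte markers (Ly6c2, Ccr2 and others) were at 4079 CPM in steady-state MoMacDC_c1, and non-classical monocyte markers (Ace, Treml4 and others) at 4777 CPM in MoMacDC_c5. The libraries shared 8 cell barcodes.

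Clec4d and Clec4e, the MCL and Mincle receptors that pair with each other on the cell surface, were highest in the cells labelled granulocytes in both libraries. Clec4d stood at 876 CPM in steady-state granulocytes (3218 UMIs in 1929 cells) and at 472 CPM in GM-conditioned granulocytes (1140 UMIs in 1791 cells), a ratio of 0.540 (0.504 to 0.577). Clec4e stood at 430 and 201 CPM in the same cells, a ratio of 0.467 (0.420 to 0.517). Both were thus lower in the GM-conditioned granulocytes. The granule-stage neutrophil list (Ltf, Camp and others) was at 1158 CPM in steady-state and 2230 CPM in GM-conditioned granulocytes, and its part in the ratios was not tested. For Clec4d the next cell type in order was far below, neutrophils at 58.7 and 38.7 CPM. For Clec4e, among cell types with at least 100000 UMIs, it was MoMacDC_c5 at 132 CPM in steady state and neutrophils at 66.7 CPM after GM-conditioning. Of steady-state granulocytes, 75.9% had a Clec4d UMI against 42.9% in the GM-conditioned library, with median depths of 1770 and 1229 UMIs per cell. With each cell thinned to 1000 UMIs, which left out 8 steady-state and 496 GM-conditioned granulocytes, these shares were 56.1% (53.8 to 58.3) and 36.4% (33.8 to 39.1), and those of Clec4e 30.5% and 17.1%. Steady-state T cells, with a median depth of 3747 UMIs, held 17 Clec4d UMIs in 8 of 174 cells (23.4 CPM) and 14 Clec4e UMIs in 10 cells (19.3 CPM). Thinned, 0 of 173 T cells had a UMI of either gene, with an exact interval that reaches 2.11%.

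The same granulocytes went the other way for 2 members. Clec4n, the dectin-2 receptor for fungal mannans, was at 85.2 CPM in steady state and 133 CPM after GM-conditioning, a ratio of 1.56 (1.33 to 1.83). Clec4a2, the inhibitory DCIR1, was at 115 and 176 CPM, a ratio of 1.53 (1.33 to 1.75). Over all genes tested in granulocytes the median log2 ratio was 0.11, and the part of this in the 2 ratios was not tested. Of 6 members with at least 50 UMIs over both libraries, 1 (Clec4e, lower) differed at least 2-fold, where 10.5% of all 6257 genes tested did.

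In the cells labelled neutrophils, which carry the granule genes of maturing neutrophils (Ltf, Camp, Ngp), Clec4a2 was at its highest of all cell types with at least 100000 UMIs in each library. It stood at 328 CPM in 146 steady-state cells and 365 CPM in 893 GM-conditioned cells, a ratio of 1.11 (0.994 to 1.25) whose interval includes 1. Clec4e was at 110 and 66.7 CPM and Clec4d at 58.7 and 38.7 CPM, ratios of 0.605 (0.490 to 0.753) and 0.656 (0.495 to 0.890). Clec4n was close to absent there, with 2 UMIs in steady state and 7 in the GM-conditioned library. In both libraries Clec4d and Clec4n were thus far higher in the granulocyte cluster, and Clec4a2 in the neutrophil cluster. Of 4 members tested in neutrophils, 1 (Clec4a3, lower, 31 against 23 UMIs) differed at least 2-fold, where 6.10% of 6489 genes did, and that member dropped under the minimum of 50 UMIs when called doublets or the single cell with most UMIs were left out.

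**Figure D1:**
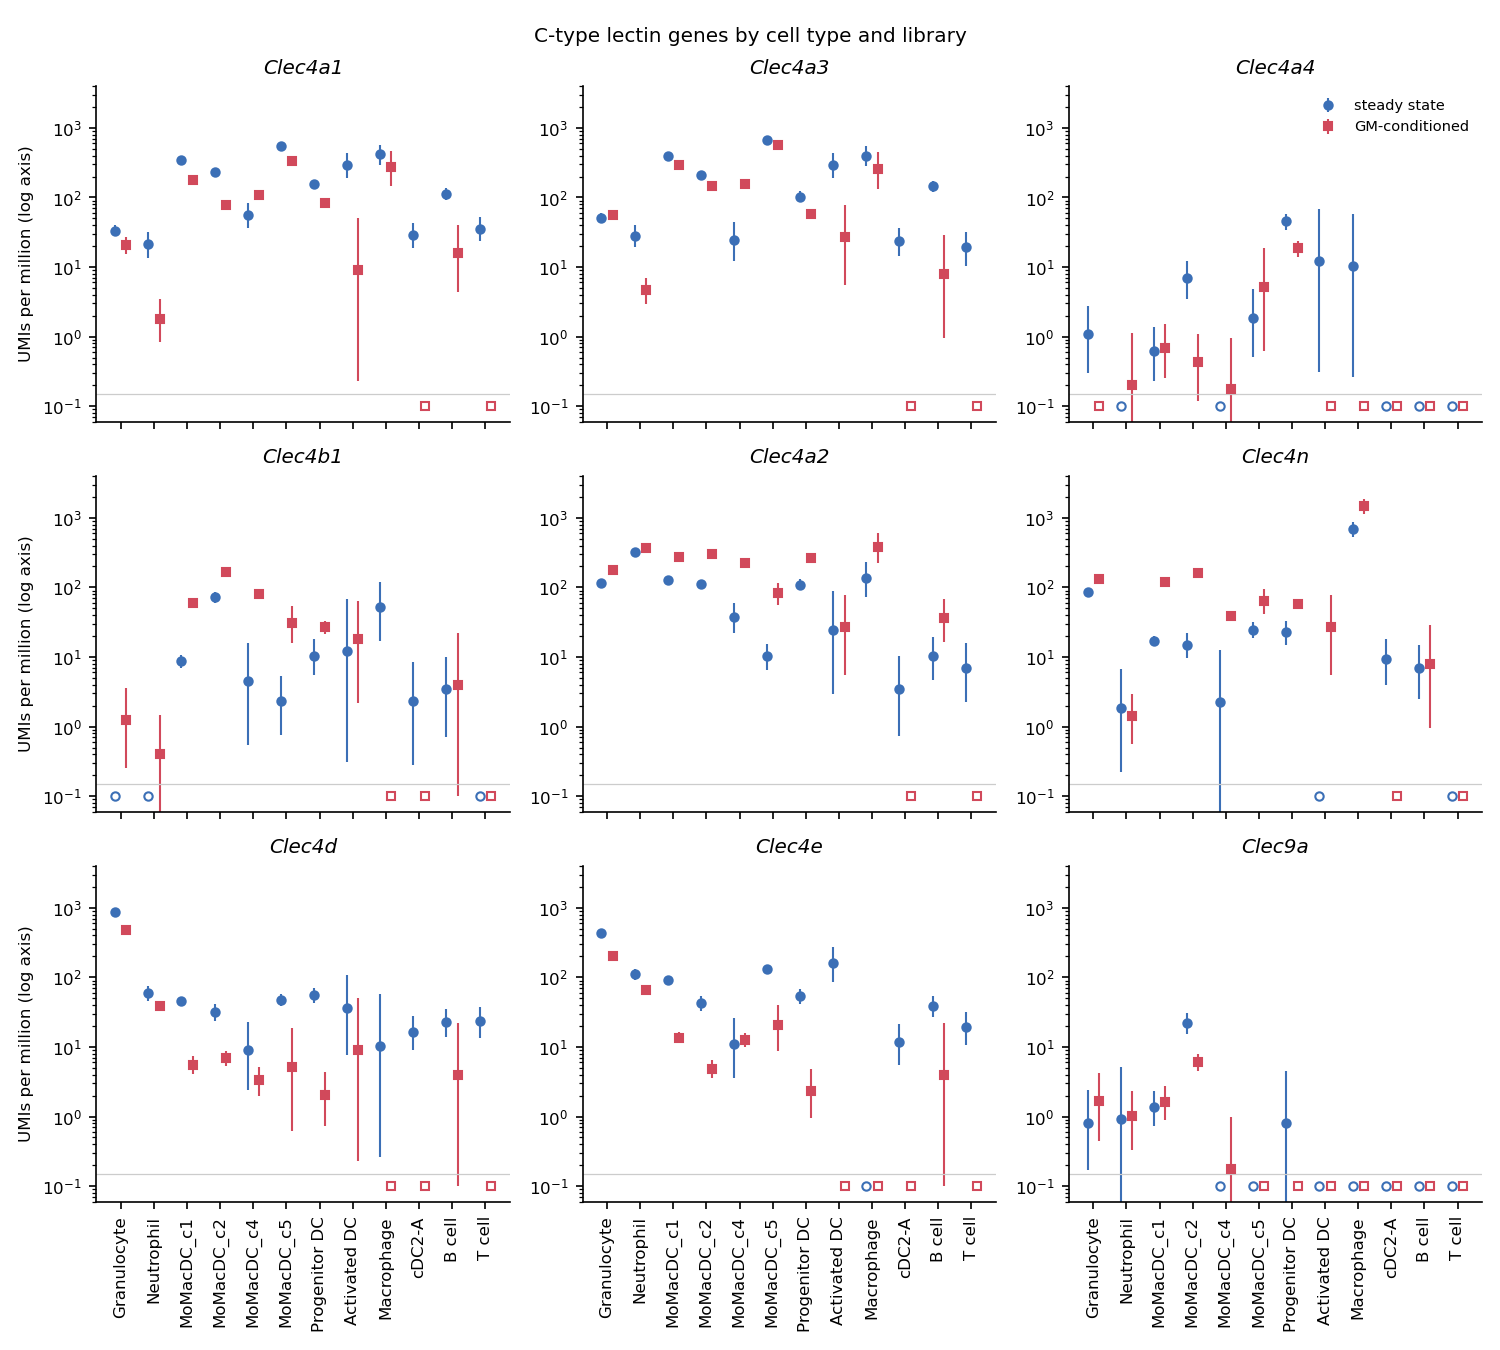
Level of each measured gene (CPM, log axis) in the 12 deposited cell types, steady state (blue circles) and GM-conditioned (red squares), with exact Poisson 95% intervals. Open symbols under the grey line are groups with 0 UMIs. Clec4d and Clec4e peak in granulocytes, Clec4a1 and Clec4a3 in MoMacDC_c5 among the larger groups, and Clec4a4 in progenitor DCs.

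The DCIR relatives Clec4a1 and Clec4a3 were high in the clusters with monocyte markers. The order that follows leaves out macrophages in both libraries and activated DCs in steady state, among others, for too few UMIs, and does not cover them. Among cell types with at least 100000 UMIs, their levels followed the same order in both libraries: MoMacDC_c5, the cluster with non-classical monocyte markers, was highest and MoMacDC_c1, with classical monocyte markers, second. Clec4a1 was at 549 CPM in steady-state MoMacDC_c5 and 343 CPM in MoMacDC_c1, and at 335 and 180 CPM after GM-conditioning. Clec4a3 was at 664 and 399 CPM in steady state and at 563 and 292 CPM after GM-conditioning. The neighbours in these orders were separated by more than counting error. Across 19 groups of cell type and library with at least 100000 UMIs, Clec4a1 and Clec4a3 correlated at r = 0.93 in log2(CPM + 10). The genes most like Clec4a3 were Csf1r (r = 0.94, the CD115 receptor of monocytes) and Ctsb (0.93), and that most like Clec4a1 was Ctsb (0.94). These groups share libraries and are no independent samples.

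Clec4a4, which encodes the 33D1 antigen, was sparse and concentrated in the cells labelled progenitor DC, which also carried the cDC2 list at 1649 CPM in steady state and 974 CPM after GM-conditioning. It stood at 45.3 CPM in steady state (56 UMIs in 152 cells) and 18.5 CPM in the GM-conditioned library (55 UMIs in 393 cells), a ratio of 0.407 (0.276 to 0.602). Those cells held 56 of its 77 steady-state UMIs in the bundle and 55 of 68 GM-conditioned ones. The study also used Clec4a4 to pick cDC2s among the cells outside the bundle.

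Clec9a was at 21.9 CPM in steady-state MoMacDC_c2 (35 UMIs) and 6.01 CPM in the GM-conditioned cells of that cluster (56 UMIs), a ratio of 0.273 (0.177 to 0.431), and at most 1.66 CPM in every other cell type of either library. Over the whole bundle its ratio was 0.797 (0.548 to 1.18), with an interval that includes 1. The number of cells in MoMacDC_c2 went from 177 to 1471 between the libraries, and the cells behind the 2 values need not be of one kind.

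Macrophages were few but stood apart for Clec4n. The 25 steady-state macrophages held 66 UMIs (685 CPM) and the 22 GM-conditioned ones 69 UMIs (1460 CPM). These cells carried macrophage markers (C1qa, Vcam1 and others) at 21515 and 21100 CPM, and their Clec4n levels were above those of every other cell type in the same library.

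The question that GM-CSF treatment poses is how the CD11b+ monocytes and DCs differ after it, and here the members split. Over the MoMacDC bundle (2135 steady-state and 3940 GM-conditioned cells), Clec4b1, Clec4n and Clec4a2 were higher and Clec4a1, Clec4a4, Clec4d and Clec4e lower in the GM-conditioned library by at least 2-fold. That is 7 of 9 members tested, where 18.1% of all 10860 genes tested differed as much. The members' median ratio was 0.501 (Clec4a3) against a median of 0.959 for all genes tested. Clec4a4 lay just inside the 2-fold line (ratio 0.488, interval 0.347 to 0.684) and Clec4a3 just outside it (0.501, 0.483 to 0.521).

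Among the activating receptors, Clec4b1 (DCAR) was at 14.6 CPM in steady state and 97.1 CPM after GM-conditioning, a ratio of 6.65 (5.80 to 7.68). Clec4n (dectin-2) was at 18.0 and 110 CPM, a ratio of 6.09 (5.38 to 6.94). Clec4d and Clec4e, which use the same adaptor, went the opposite way. Clec4d was at 44.3 and 5.13 CPM, a ratio of 0.116 (0.0957 to 0.139), and Clec4e at 87.1 and 9.27 CPM, a ratio of 0.107 (0.0925 to 0.122). Of the inhibitory receptors, Clec4a2 was at 104 and 266 CPM, a ratio of 2.55 (2.42 to 2.70), whereas Clec4a4 was at 5.15 and 2.51 CPM. The DCIR relative Clec4a1 was at 336 and 121 CPM, a ratio of 0.359 (0.343 to 0.375), and Clec4a3 at 382 and 191 CPM.

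The marker lists moved in these cells too. From steady state to the GM-conditioned bundle, the non-classical monocyte list (6 of 6 genes with a UMI) was at 1571 and 216 CPM and the classical monocyte list (5 of 5) at 2789 and 859 CPM, and Clec4a1 and Clec4a3 were highest in the clusters that carry these lists. The part of this make-up in the ratios was not tested. Clec4b1 is among the genes that the study picked for P-IV cells on these same libraries, so its direction among the subsets is not independent evidence.

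Seen along the chromosome, the 3 genes that were higher lay next to each other in the middle of the cluster. From the Clec4a1 end the log2 ratios were -1.48 for Clec4a1 and -1.04 for Clec4a4, with Clec4a3 between them at a ratio of 0.501. They were then 2.73 for Clec4b1, 1.35 for Clec4a2 and 2.61 for Clec4n, and finally -3.11 for Clec4d and -3.23 for Clec4e. Clec4b2, which lies between Clec4a2 and Clec4n, had 3 UMIs in steady state and 1 in the GM-conditioned bundle and gives no ratio. The distance from the end of Clec4n, which was higher, to the start of Clec4d, which was lower, was 15.1 kb. Beyond Clec4a1, the neighbouring Necap1 was at a log2 ratio of -0.96 and C3ar1, the receptor for complement C3a, at 2.09. No test was made of whether the order departs from chance.

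**Figure D2:**
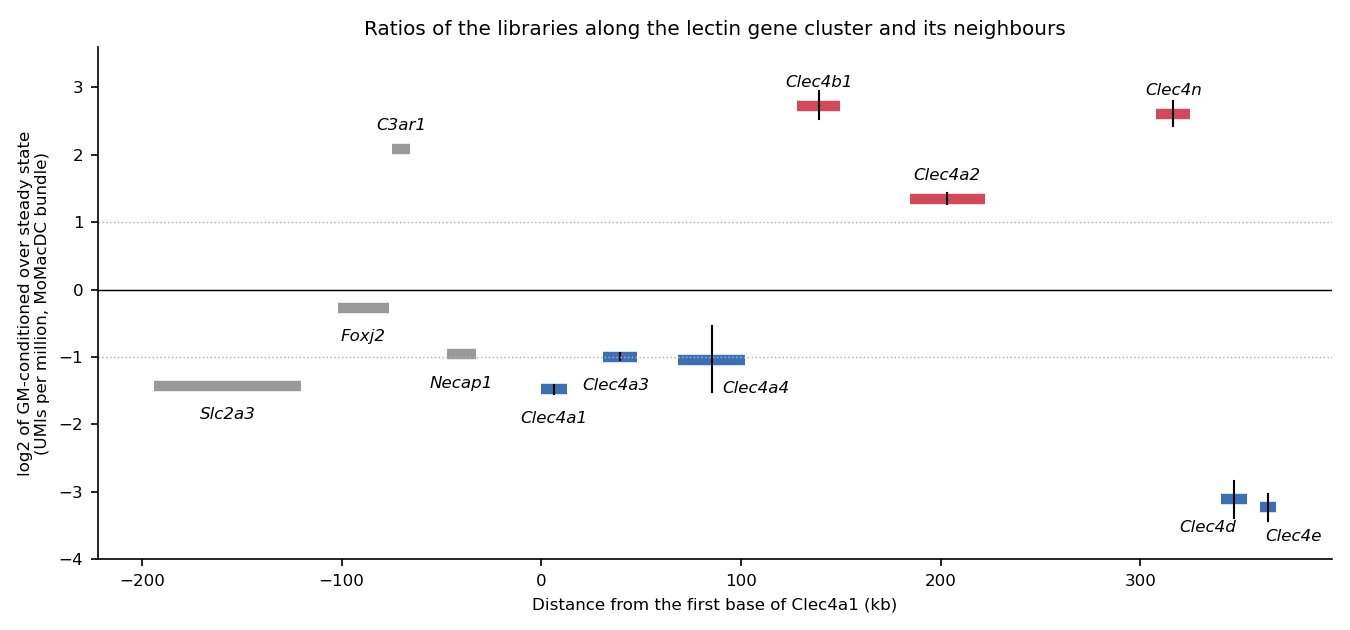
Log2 ratio of GM-conditioned over steady state (CPM, MoMacDC bundle) for genes along chromosome 6, by distance in kb from the first base of Clec4a1. Bars span each gene, red for members above 0 and blue below, grey for neighbours that are no members; black lines are 95% counting intervals, and dotted lines mark 2-fold. Clec4b1, Clec4a2 and Clec4n are higher between lower genes on both sides.

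The make-up of the bundle differed between the libraries, so the ratios were also taken within clusters. Within MoMacDC_c1 (1277 and 1342 cells), Clec4b1 went from 8.72 CPM in steady state to 60.6 CPM, Clec4n from 17.1 to 120 CPM and Clec4a2 from 127 to 272 CPM, ratios of 6.91, 7.01 and 2.15. Clec4e went from 92.5 to 13.6 CPM, Clec4d from 45.9 to 5.54 CPM and Clec4a1 from 343 to 180 CPM, ratios of 0.148, 0.122 and 0.524. The directions in this cluster were those of the bundle. Marker lists differed within MoMacDC_c1 too, so its cells were not alike in the 2 libraries. From steady state to the GM-conditioned library, the classical monocyte list was at 4079 and 1272 CPM and the non-classical list at 1125 and 272 CPM. The granule-stage neutrophil list was at 2764 and 549 CPM, and the part of these lists in the ratios was not tested. The bundle was deposited in 17 clusters, of which 11 had at least 25 cells in both libraries. Clec4n was higher in the GM-conditioned cells of all 11, by 2.65 to 23.6-fold, and each interval lay above 1. Clec4b1 and Clec4a2 were each higher in 10 of 11. Clec4d was lower in 11 of 11 (5 intervals below 1), and Clec4e in 10 of 11 (8 intervals below 1). Clec4a1 was lower in 10 of 11 (9 intervals below 1). Clec4a4 and Clec9a were each lower in 9 of 11, with 2 intervals below 1 for each. Clec4a3 was lower in 10 of 11 (6 intervals below 1), and the exception for Clec4a3 was cluster 8 (9.61-fold higher), which held 28 of the 43 steady-state MoMacDC_c4 cells described above. These were all of its 28 steady-state cells, and the counts and ranges of every gene here include cluster 8. Its ratios thus set cells of a group rich in NK cell genes against GM-conditioned cells nearly without them.

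**Figure D3:**
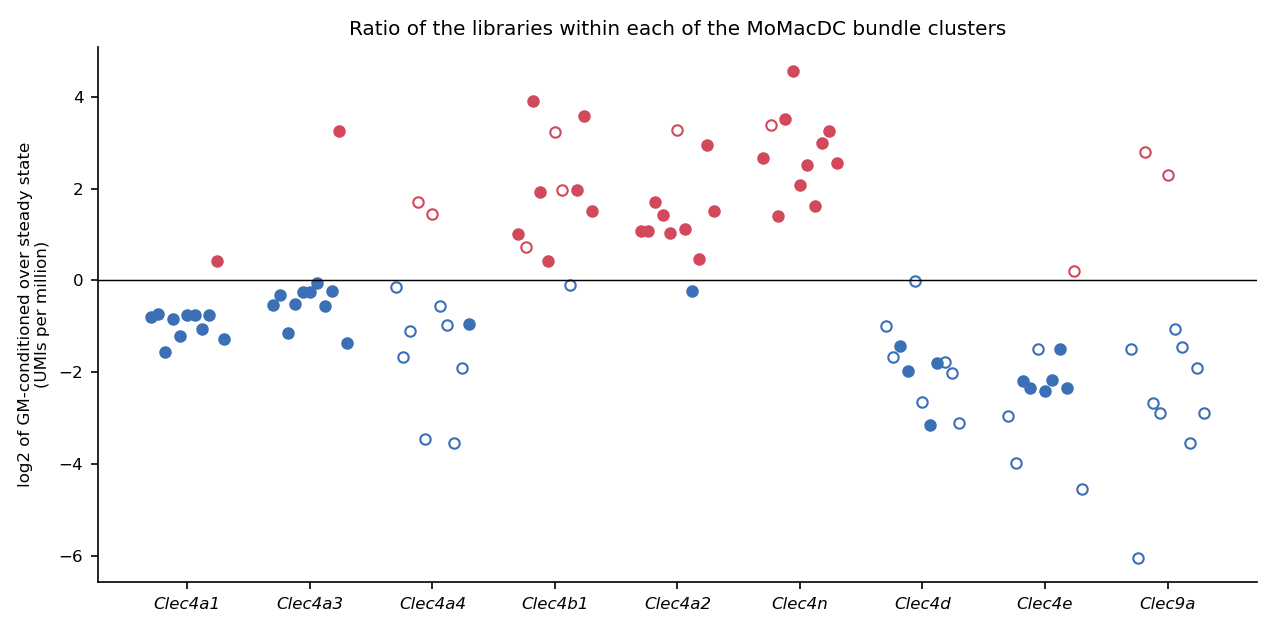
Log2 ratio of GM-conditioned over steady state (CPM) for each measured gene in each of the 11 bundle clusters with at least 25 cells in both libraries; each circle is 1 cluster. Red circles are above 0 and blue ones below; open circles rest on fewer than 50 UMIs over both libraries. All 11 circles of Clec4n lie above 0 and all 11 of Clec4d below.

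Neutrophil RNA also differed between the libraries in these cells, by less than Clec4d and Clec4e did. The mature neutrophil list (7 of 7 genes with a UMI) stood at 3688 CPM in the steady-state bundle and 2800 CPM in the GM-conditioned bundle. In progenitor DCs it stood at 8282 and 1806 CPM. The 4 neutrophil-restricted genes Retnlg, Cxcr2, Mmp9 and Il1r2 were at 321 and 208 CPM in the bundle. In MoMacDC_c5 they were higher after GM-conditioning (440 and 611 CPM), where Clec4d (47.9 and 5.12 CPM) and Clec4e (132 and 20.5 CPM) were lower. Per 1000 UMIs of these 4 genes, steady-state progenitor DCs held 81.4 Clec4d UMIs, close to the 73.0 of granulocytes in that library. For Clec4e they held 79.0, against 35.9 in granulocytes. In the steady-state progenitor DCs without a UMI of those 4 genes (82 of 152 cells), Clec4d dropped from 55.0 to 4.90 CPM and Clec4e from 53.4 to 13.1 CPM. In monocyte clusters these values were higher for both genes. Per 1000 neutrophil-restricted UMIs, steady-state MoMacDC_c1 held 376 Clec4e UMIs and MoMacDC_c5 held 299, against 35.9 in granulocytes. For Clec4d the values were 186 and 109, against 73.0 in granulocytes. In bundle cells without a UMI of the 4 genes, Clec4e was still at 83.0 CPM in steady state and 7.93 CPM after GM-conditioning, a ratio of 0.0958 (0.0808 to 0.113). Clec4d was at 21.7 and 2.84 CPM there, a ratio of 0.132 (0.0976 to 0.174). Of the 240 steady-state Clec4d UMIs in those cells, 217 lay in MoMacDC_c1, so this ratio speaks mainly for that cluster. Without cells that had a UMI of the 4 genes, steady-state Clec4d dropped from 47.9 to 9.32 CPM in MoMacDC_c5. In MoMacDC_c2 it dropped from 31.9 to 5.15 CPM, beside 3.04 CPM in the GM-conditioned cells kept by the same rule. The ratio of Clec4a4 moved to 0.590 and that of Clec4a3 to 0.495 in those cells, so 7 of 9 members again differed at least 2-fold, with Clec4a3 in place of Clec4a4.

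In progenitor DCs themselves, Clec4a2 (110 to 261 CPM), Clec4b1 (10.5 to 26.8 CPM) and Clec4n (22.7 to 58.4 CPM) were higher after GM-conditioning, and Clec4a4, Clec4d (55.0 to 2.01 CPM) and Clec4e (53.4 to 2.35 CPM) lower. These were 6 of 8 members tested, where 13.9% of 7286 genes differed at least 2-fold. The calls of 4 of these 6 did not hold throughout, and that of Clec4a4 fell under the minimum of 50 UMIs when thinned. Thinned to 1000 UMIs per cell, Clec4n rested on 27 and 9 UMIs and its ratio moved from 2.54 to 1.12 (0.532 to 2.81). Clec4b1 rested on 10 and 2 UMIs, and its ratio moved from 2.47 to 1.63 (0.414 to 18.2). Clec4a4 rested on 3 and 7 UMIs, with a ratio of 0.181 (0.0278 to 0.729). In the cells without a UMI of the 4 neutrophil-restricted genes the ratio of Clec4n was 5.18 with an interval above 1. In those cells Clec4d had 1 UMI after GM-conditioning and 3 in steady state, a ratio of 0.115 (0.00171 to 1.12), and Clec4e 0 and 8 UMIs, so both were under the minimum of 50 UMIs and were no longer called.

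The CD115hi cells of the bundle were divided by the study through their antibody tags into P-I (Ly6C+, classical monocytes), P-II (Ly6C- MHC II-), P-III (Ly6C- MHC II+ CD301b-) and P-IV (Ly6C- MHC II+ CD301b+, the GM-CSF-induced DCs). P-I held 139 steady-state and 187 GM-conditioned cells. Between them, Clec4n went from 19.2 CPM in steady state to 111 CPM and Clec4b1 from 6.41 to 40.9 CPM, ratios of 5.67 (3.65 to 9.61) and 6.01 (2.90 to 16.6). Clec4a2 went from 115 to 241 CPM. Clec4a1 went from 400 to 156 CPM, Clec4e from 60.4 to 12.2 CPM and Clec4d from 51.3 to 12.9 CPM, ratios of 0.391 (0.331 to 0.461), 0.206 (0.111 to 0.348) and 0.257 (0.139 to 0.435). These 6 of 7 members tested differed at least 2-fold, where 12.1% of 5774 genes did. Thinned to 1000 UMIs per cell, the ratio of Clec4a2 was 1.59 (0.952 to 2.81) and no longer past 2-fold, and that of Clec4b1 was 2.69 (0.814 to 16.7) on 12 and 3 UMIs. Marker lists also differed between the P-I cells of the libraries. From steady state to the GM-conditioned library, the non-classical monocyte list was at 1228 and 363 CPM, the classical monocyte list at 3342 and 1520 CPM, and the granule-stage neutrophil list at 1924 and 1190 CPM, whereas the mature neutrophil list was at 3536 and 3511 CPM. The 4 neutrophil-restricted genes were at 308 CPM in steady-state P-I and 467 CPM in GM-conditioned P-I. The part of the lists and of these genes in the ratios was not tested.

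Within the GM-conditioned library, Clec4b1 differed step by step among the subsets. It was at 40.9 CPM in P-I (57 UMIs), 94.6 CPM in 126 P-III cells (70 UMIs) and 184 CPM in 313 P-IV cells (414 UMIs). P-III exceeded P-I by 2.31-fold (1.61 to 3.35) and P-IV exceeded P-III by 1.93-fold (1.51 to 2.54), so the 3 levels were apart by more than counting error. Thinned to 1000 UMIs per cell, the first step rested on 9 and 12 UMIs and its ratio was 1.12 (0.412 to 2.86), too few to tell the subsets apart, whereas weighting each cell equally gave 2.46. Clec4b1 was the only one of 5 members tested that differed at least 2-fold between P-III and P-I, where 3.82% of 5233 genes did.

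Clec4a1 went the other way. It was at 156 CPM in P-I, 164 CPM in P-III and 77.4 CPM in P-IV, with a ratio of P-III to P-I of 1.05 (0.831 to 1.31) and of P-IV to P-III of 0.472 (0.373 to 0.602). Thinned, the latter rested on 28 and 20 UMIs and was 0.554 (0.303 to 1.05). It was the only one of 5 members tested past 2-fold at that step, where 2.93% of 6216 genes were. Clec4a3 was at 245, 241 and 145 CPM in the same order, a ratio of 0.604 (0.502 to 0.729) at that step. The ratios of P-IV to P-III were 1.02 (0.878 to 1.19) for Clec4a2 and 1.14 (0.900 to 1.48) for Clec4n, with intervals that include 1. Clec4a2 stood at 241, 306 and 312 CPM and Clec4n at 111, 115 and 132 CPM in P-I, P-III and P-IV. Clec4d and Clec4e were low throughout, with 6 and 9 UMIs in P-IV. Clec9a had 1 UMI in P-I, 1 in P-III and 17 in P-IV.

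In steady state, P-III held 12 cells, P-IV 7 and P-II 8, and P-II in the GM-conditioned library also held 8. The 12 steady-state P-III cells stood at 554 CPM for Clec4a1, 640 CPM for Clec4a3 and 12.3 CPM for Clec4a2 (1 UMI), beside 164, 241 and 306 CPM in the GM-conditioned P-III cells. In these 3 genes the steady-state P-III cells were nearer to steady-state MoMacDC_c5, at 549, 664 and 10.2 CPM. The 7 steady-state P-IV cells were at 553 CPM for Clec4a1 and 553 CPM for Clec4a3.

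**Figure D4:**
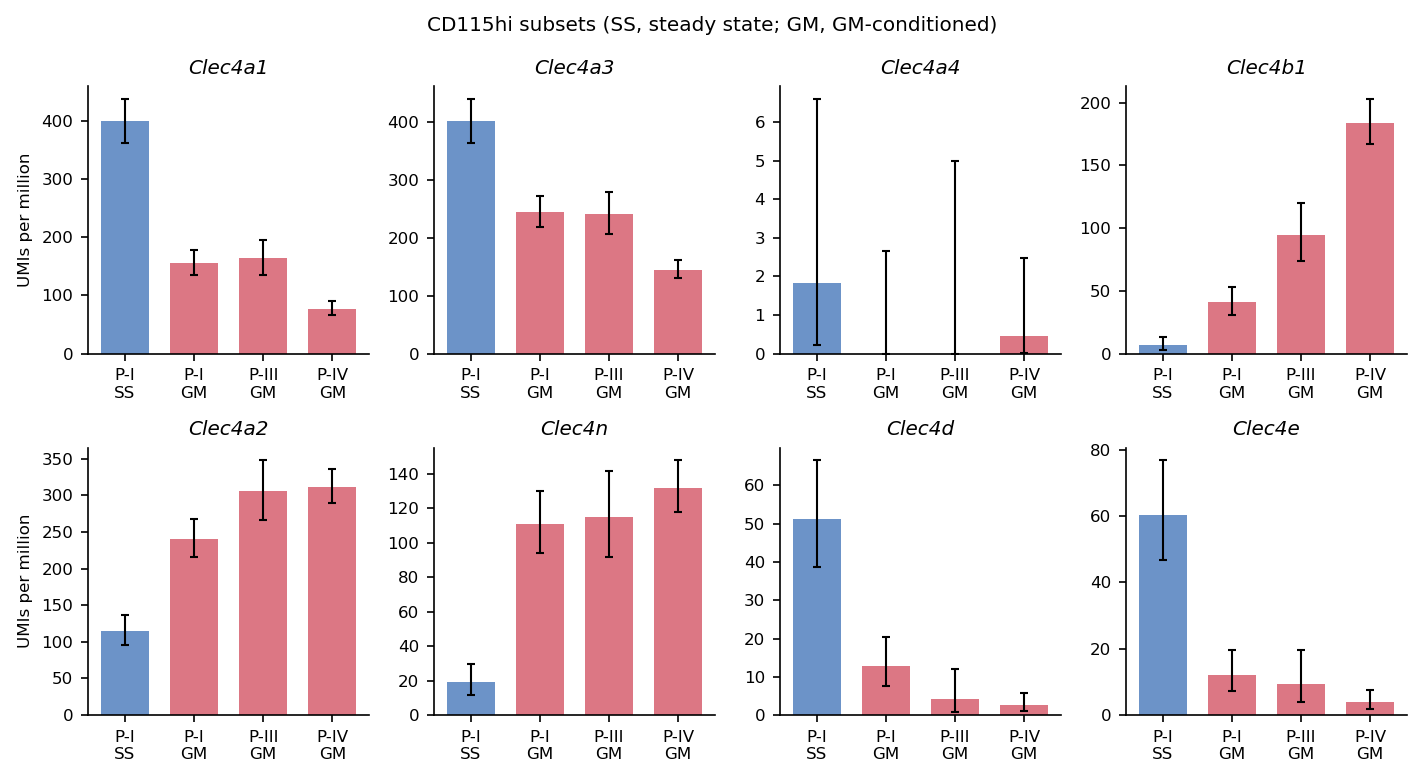
Level (CPM, bars from 0) of 8 genes in steady-state P-I (SS, blue) and in the GM-conditioned subsets (GM, red), with exact Poisson 95% intervals. Clec4b1 stands at 40.9 in P-I and 184 in P-IV of the GM-conditioned library, whereas Clec4a1 is lowest in P-IV at 77.4.

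The antibody tags are counted apart from RNA, but the study gated P-I, P-III and P-IV on these same tags. It also picked Clec4b1 for P-IV on these libraries, so the orders by tag are no evidence independent of the subsets. GM-conditioned bundle cells were cut into tertiles by the share of each tag in a cell's tag counts, with 1313 or 1314 cells in each. Shares of 1 total are linked, as a high share of 1 tag leaves less for the others. From the lowest to the highest tertile of CD301b, Clec4b1 was at 61.8, 63.2 and 164 CPM, a ratio of 2.65 (2.41 to 2.93) between the ends. Clec4n was at 95.1, 93.9 and 139 CPM, and Clec9a had 6 UMIs in the lowest tertile and 53 in the highest. For Ly6C the order was the reverse. Clec4b1 was at 140 CPM in the lowest tertile and 35.2 CPM in the highest, a ratio of 0.251 (0.223 to 0.283). Clec4e was at 3.09 CPM in the lowest and 17.6 CPM in the highest tertile of Ly6C, and Clec4a1 at 81.5 and 167 CPM. Clec4a4 had 55 UMIs in the highest tertile of CD11c and 1 in the lowest. In the steady-state bundle, CD301b gave another order for Clec4b1. The ratio of the highest to the lowest tertile was 0.686 (0.488 to 0.960), on 63 and 87 UMIs. From the lowest to the highest of these tertiles, the median share of the CD301b tag was 0, 0.442 and 1.36%. The lowest GM-conditioned tertile already had a median share of 1.11%. The steady-state tertiles thus spanned little CD301b, and their ratio cannot be set against that of the GM-conditioned bundle. The ratio of Clec4b1 by MHC II was 4.13 (2.87 to 6.06) in steady state and 1.18 (1.07 to 1.30) after GM-conditioning. The lowest GM-conditioned tertile of MHC II already had a median share of 21.4%, against 3.39% in the middle steady-state tertile. The tertiles of MHC II thus spanned different shares in each library, and these ratios cannot be set against each other either.

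**Figure D5:**
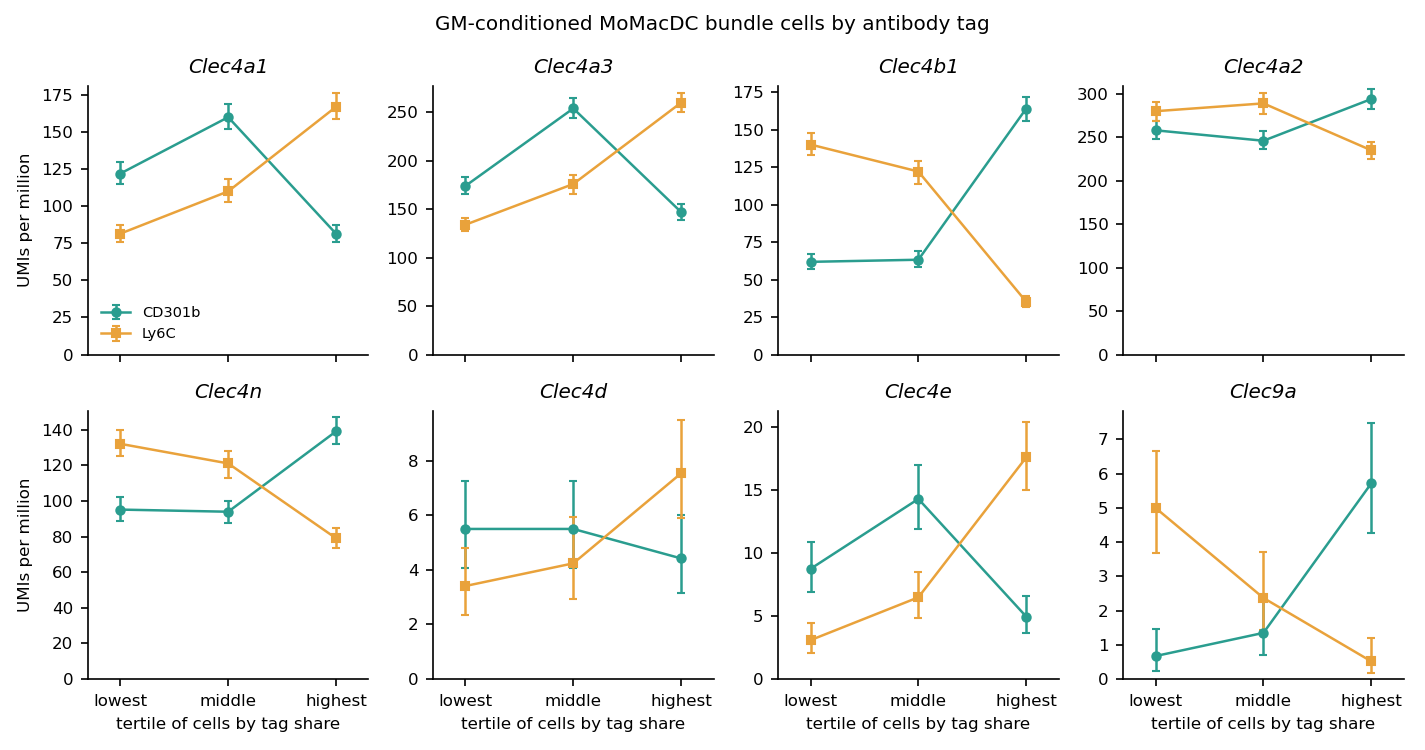
Level (CPM) of 8 genes in GM-conditioned bundle cells, by tertile of the share of the CD301b tag (green circles) and of the Ly6C tag (orange squares), with exact Poisson 95% intervals. Clec4b1 reaches 164 in the highest tertile of CD301b and 35.2 in the highest tertile of Ly6C, while Clec4e and Clec4a1 are highest in the highest tertile of Ly6C.

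Over the 31 groups of bundle cluster and library with at least 100000 UMIs, the gene most like Clec4b1 was Mgl2 (r = 0.92), which encodes CD301b. The most like Clec4e was Tnfaip2 (0.92), and the most like Clec4d was Ccr1 (0.93). Clec4b1 and Clec4e ran against each other (r = -0.64), Clec4d and Clec4e together (0.74), and Clec4b1 and Clec4n together less closely (0.52). Detection of 2 members in the same cells was compared at matched depth. Among steady-state granulocytes at 1000 UMIs, Clec4d was found in 59.9% (55.8 to 63.9) of 586 cells with a Clec4e UMI and in 54.4% (51.7 to 57.1) of 1335 cells without. In GM-conditioned MoMacDC_c2, Clec4n was found in 13.5% (9.14 to 18.9) of cells with Clec4b1 and 12.6% (10.8 to 14.6) of those without. At that depth 76.0% of steady-state granulocytes and 62.5% of GM-conditioned granulocytes had a UMI of at least 1 member, against 3.47% of steady-state T cells.

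Of 18 adaptor and signalling genes of these receptors, 17 were tested over the bundle. The list held 4 that were at least 2-fold lower after GM-conditioning and 0 that were higher, near the 18.1% of all genes that differed as much either way. Those lower included Hcst (the DAP10 adaptor), Prkcd and Fgr. Its median log2 ratio was -0.45 against -0.06 for all genes tested. Fcer1g, the gamma chain that Clec4n, Clec4e, Clec4d and Clec4b1 use, was at 2338 CPM in steady state and 1710 CPM after GM-conditioning, a ratio of 0.731. Syk was at 288 and 176 CPM and Card9 at 19.4 and 14.0 CPM. In P-I, 3 of 16 tested were at least 2-fold lower, Hcst and Prkcd among them, where 12.1% of all genes differed as much. In granulocytes 0 of 17 did, where 10.5% of all genes did. Counts this near the background are no result about the list.

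Of 20 other C-type lectin and related receptor genes, 15 were tested over the bundle, with 5 at least 2-fold higher and 4 lower, where 18.1% of all genes differed as much. Mgl2 was at 6.55 CPM in steady state and 218 CPM after GM-conditioning, and its close relative Clec10a (CD301a) at 38.7 and 122 CPM. Mrc1, the mannose receptor, was at 6.62 CPM in steady state and higher after GM-conditioning by a ratio of 3.61. Clec5a, which pairs with Tyrobp, was at 18.2 and 7.01 CPM. Mgl2 and Cd209a were the 2 of 8 tested that were at least 2-fold higher in P-IV than in P-III, where 2.93% of all genes differed as much, and P-IV was gated on the protein of Mgl2.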

How the data were processed

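The authors deposited raw counts, as UMI counts per gene and tag counts per antibody and cell, made with Cell Ranger 3.0.2 (gene models of mm10) and CITE-seq-Count, together with tables of cell labels from Seurat 3.6.0 after integration of the libraries. Cell Ranger counts reads that map to 1 gene alone, so reads shared by close relatives of this family are lost. Cells outside 200 to 5000 genes, or over 15% mitochondrial UMIs, had been removed by them. Cell types, clusters and subsets were the deposited labels. No columns of other samples were present.

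Here the UMIs of all cells in a group were added up. Levels carry exact Poisson intervals, shares exact Clopper-Pearson intervals and ratios exact intervals from the binomial share of the counts, all at 95%. A gene was tested in a comparison with at least 50 UMIs over both groups and called at 2-fold either way; the same rule over all genes gave the background. Depths were 22358903 and 35007567 UMIs (medians of 3371 and 4916 per cell). A count of 0 allows up to 3 counts. Cells were thinned to 1000 UMIs with seed 20. Scrublet called 152 and 186 doublets (2.91% of cells), which stayed in. Likeness was the Pearson correlation of log2(CPM + 10) among genes with at least 200 UMIs, and the 3 highest genes were considered for each member. All members were named, whatever their values.

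Alternatives covered depth, doublets, mitochondrial share, scaling, weight of cells, added counts, minimum and fold. The members, lists and alternatives were chosen with earlier results of these data known. Protein sequences and Clec7a were not analysed here. The values of 1 gene of the signalling list are not reported here. Python 3.11.15, numpy 2.4.6, scipy 1.17.1, pandas 2.3.3, scanpy 1.11.5 and matplotlib 3.10.9 were used.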

Additional observations from a re-analysis of the deposited data

Results flagged for a closer look

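In 2 groups Clec4a1 and Clec4a3 differed between the libraries in another direction or by another size than in the monocyte clusters, and the difference between groups was not tested. In MoMacDC_c4 the ratio of GM-conditioned to steady state was 1.89 for Clec4a1 and 6.02 for Clec4a3, against 0.524 and 0.731 in MoMacDC_c1. Of the 43 steady-state cells of MoMacDC_c4, 30 had a UMI of the NK cell list. In the other 13 cells, Clec4a1 was at 156 CPM and Clec4a3 at 78.2 CPM, beside 108 and 155 CPM in the GM-conditioned cells kept by the same rule.

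In the cells labelled B cells the ratio was 0.158 for Clec4a1 (99 UMIs in steady state, 4 after GM-conditioning) and 0.0690 for Clec4a3 (126 and 2 UMIs). The UMIs lay in 31 and 33 of the 196 steady-state B cells. Without the cells that had a UMI of Csf1r, the monocyte receptor, 157 steady-state B cells stayed, with Clec4a1 at 22.6 CPM and Clec4a3 at 18.8 CPM, beside 113 and 144 CPM before.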

How the results depend on the processing

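No paired analysis was possible because each condition is 1 library. Of 420 ratios of members recomputed under alternatives, 387 stayed within the interval of the reported value, 33 left it and 0 of the called ones turned direction. Thinning to 1000 UMIs per cell moved 20 of 44 ratios out of their interval, but on far fewer UMIs, and for 43 of 44 the thinned interval met that of all UMIs. The exception was Clec4a2 in the bundle, at 3.20 (2.72 to 3.79). The counts of members past 2-fold moved by over 1.5 times in these cases. In granulocytes 1 became 5 at 1.5-fold and 0 at 3-fold. In neutrophils 1 became 0 without called doublets, 0 without the cell with the most UMIs, 0 with a minimum of 200 UMIs, 2 with a minimum of 20 and 3 at 1.5-fold. In the bundle 7 became 4 at 3-fold. In progenitor DCs 6 became 2 with a minimum of 200 and 2 at 3-fold, and in P-I 6 became 2 with a minimum of 200. For P-III against P-I, 1 became 0 when thinned, 2 with a minimum of 20, 0 with a minimum of 200 and 0 at 3-fold. For P-IV against P-III, 1 became 0 when thinned, 3 at 1.5-fold and 0 at 3-fold. Apart from what a stricter line or minimum removes by construction, the cause was not tested. Leaving out cells with a UMI of Retnlg, Cxcr2, Mmp9 or Il1r2, or of the NK cell list, was chosen after seeing the data. The first moved 6 of 34 ratios out of their interval and the second 0 of 34. Depth limits Clec4a4 and Clec9a most, with 68 and 71 UMIs in the GM-conditioned bundle.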
